A study of Drosophila melanogaster with 3 samples.

Results

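Trithorax group genes encode proteins that keep developmental genes active, in opposition to the Polycomb group. Some of them form the Brahma complex, the fly form of the SWI/SNF complexes, which use ATP to move or eject nucleosomes. Others modify histone tails or remodel chromatin on their own. The 7 genes described here are a list of names with no measured value in its rule, but the list was drawn up with earlier results of these data known, so the counts below describe these genes and are not an independent test. The genes are brm, mor, osa and Snr1, whose products are subunits of the Brahma complex, the histone methyltransferase genes trx and ash1, and kis, which encodes a chromodomain ATPase. They are 7 of 18164 genes in the Ensembl annotation on the 6 main chromosome arms, and 11 of the 3905 distinct peaks of the optimal list had their summit in one of these genes or within 5 kb of it.

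The peaks are those of CG1529, a predicted zinc finger protein of Drosophila melanogaster, in a ChIP-seq experiment on whole embryos of both sexes, 0 to 14 h old. The embryos came from a transgenic line with CG1529 tagged at its C terminus by green fluorescent protein (GFP), and the labels do not give the promoter that drives the tagged gene. The 3 libraries, biological replicates 1, 2 and 3 in the labels, form 1 group with no second condition, and no mock or untagged group was used here. The labels disagree on the kind of library: the antibody field names CG1529, but the free text of each sample speaks of an input control. The deposited file listings name a separate control alignment behind every peak list, and the libraries were read here as ChIP libraries. In whole embryos, binding in fewer cells and weaker binding in every cell cannot be told apart.

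Each library has a relaxed list of 30000 rows, which holds peaks and background. The optimal list is the authors' joint list, kept at a threshold for reproducibility between replicates. A peak's signal is the authors' value and its rank is its place by signal within 1 list, 1 being the strongest. The strongest 3921 rows of a library, as many as the optimal list has rows, are called its strong rows below. The last strong row had a −log10 q-value of 1.57 in replicate 1, 3.42 in replicate 2 and 3.92 in replicate 3. Strong rows thus reach lower −log10 q-values in replicate 1. Read depth is unknown from peak lists. Replicate 1 had 6.82% of its rows at the highest −log10 q-value of its list, while replicate 2 had 13.0% and replicate 3 had 13.9%. All 11 peaks at the members had the same −log10 q-value in the optimal list, 3.87, so they are told apart by signal alone.

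CG1529-GFP was found near all 7 genes. It was at the start site of 1 of the 7, close to the share among all genes. brm was the only member with an optimal summit within 500 bp of its own transcription start site (TSS), 1 of 7 genes, where 11.4% of all genes and 13.3% of protein-coding genes had one. Every member had at least 1 optimal summit in its body or within 5 kb, 7 of 7, against 36.5% of all genes and 38.4% of protein-coding genes. The genes are 1.83 to 40.1 kb long, and long genes have more room for a peak. Inside the annotated gene alone, 3 of the 7 (trx, osa and kis) held a summit, against 8.92% of all genes. The 7 windows of gene and flanks cover 191.5 kb and held 0.574 optimal peaks per 10 kb, against 0.292 over the chromosome arms. The arms also hold sequence outside such windows. The rate over the windows of other genes was not computed, so these 2 rates do not compare the members with other genes.

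The sequences at the 6 strongest of the 11 summits are shown as examples of the base composition described further on. The summits of lowest and highest G+C, the second-intron peak of trx (18.8%) and the Snr1 peak (39.6%), are not among them. Each sequence shown covers the summit and 50 bases to each side on the dm6 plus strand, read from the RefSeq genome of the same assembly. Its longest unbroken run of A and T is in capitals. Where runs tie in length, as in the kis window, the first is marked. The windows are chr3L:19590561-19590661 for the peak beside ash1, chr3R:17704358-17704458 and chr3R:17700538-17700638 for the first and second peaks in osa, chr3R:14283825-14283925 for the first peak in trx, chr3L:15982931-15983031 for brm and chr2L:223486-223586 for the first peak in kis.
ash1 peak 1: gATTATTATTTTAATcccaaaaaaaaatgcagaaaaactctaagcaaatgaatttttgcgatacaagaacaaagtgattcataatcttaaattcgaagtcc
osa peak 1: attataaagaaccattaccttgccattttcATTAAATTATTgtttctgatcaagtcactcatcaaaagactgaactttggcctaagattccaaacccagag
osa peak 2: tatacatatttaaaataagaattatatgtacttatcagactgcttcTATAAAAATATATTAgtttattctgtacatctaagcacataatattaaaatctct
trx peak 1: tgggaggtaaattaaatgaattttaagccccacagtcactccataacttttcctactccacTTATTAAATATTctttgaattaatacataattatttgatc
brm peak 1: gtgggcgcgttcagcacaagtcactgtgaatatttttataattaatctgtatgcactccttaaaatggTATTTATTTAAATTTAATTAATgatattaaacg
kis peak 1: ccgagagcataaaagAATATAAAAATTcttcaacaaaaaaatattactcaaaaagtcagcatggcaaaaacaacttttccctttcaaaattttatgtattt

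**Figure D1:**
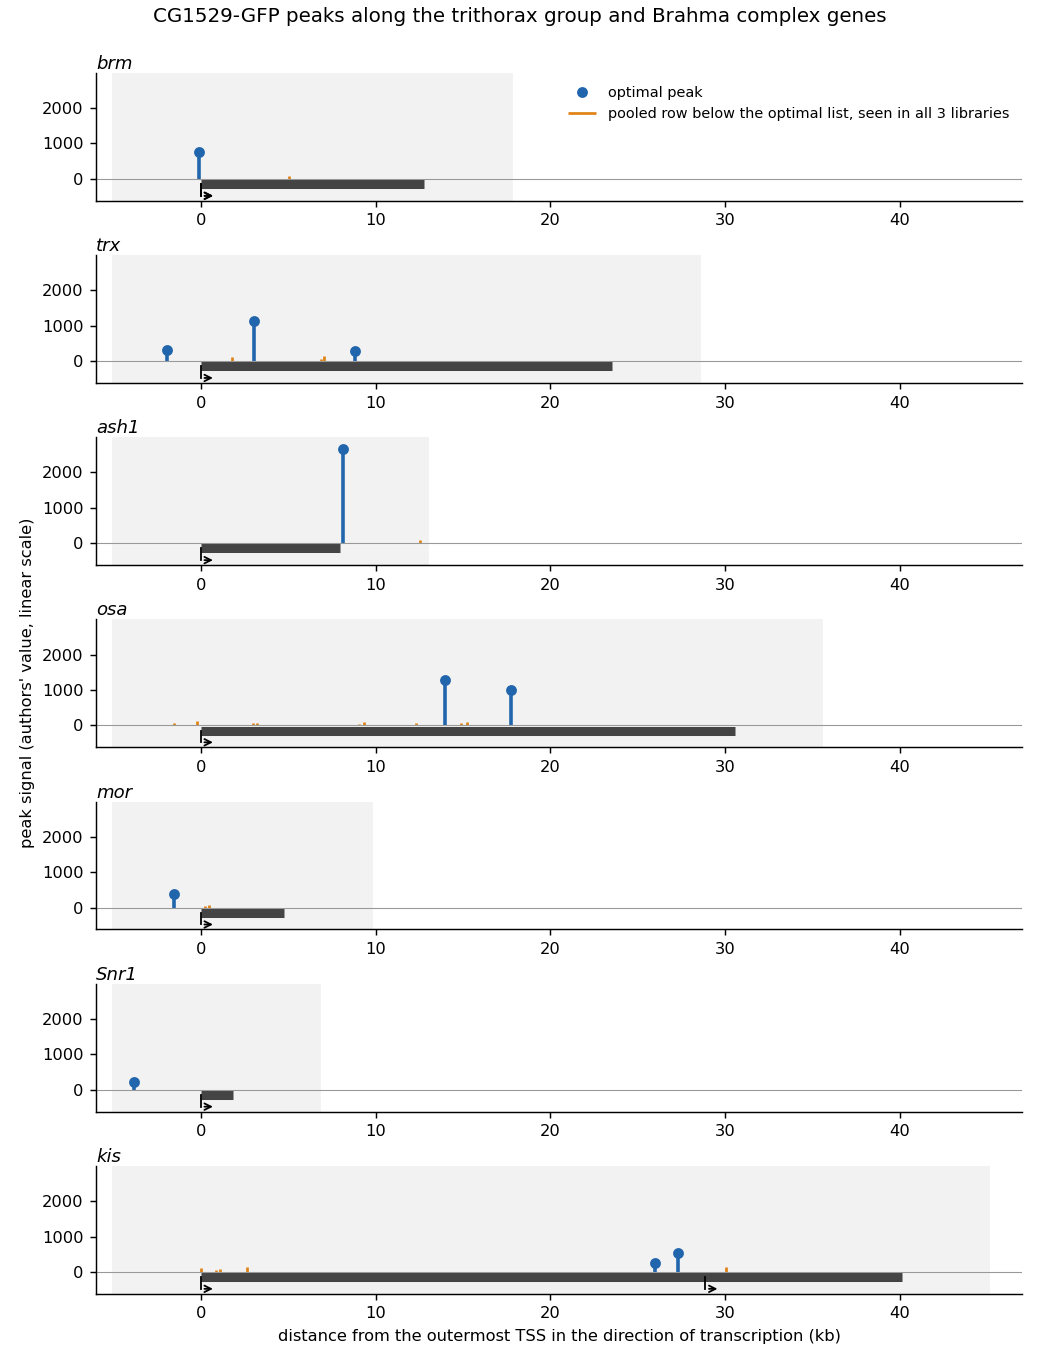
Peaks along the 7 genes. The x axis is the distance from each gene's outermost TSS in the direction of transcription in kb, the y axis the authors' peak signal on a linear scale. Dark bars are the genes, arrows their start sites (the 2 brm starts nearly coincide), grey areas the gene with 5 kb to each side, blue points the 11 optimal peaks, and orange lines the weaker rows of the pooled list found in all 3 libraries. The tallest point, of signal 2660, stands just past the 3′ end of ash1, and only brm has a point at its start.

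brm encodes the ATPase that drives the Brahma complex. The gene (FBgn0000212) lies at chr3L:15970082-15982869 on the minus strand in dm6. Its peak, at chr3L:15982872-15983166, had a signal of 755 and rank 264 of 3905. The summit lay 112 bp upstream of the outer of the 2 annotated brm start sites and 154 bp upstream of the start of Arl1, which encodes a Golgi small GTPase and is transcribed the other way. The outer brm start and the nearest Arl1 start are 266 bp apart. The peak begins 3 bp upstream of the brm start and ends 31 bp past the Arl1 start, so it covers nearly all of the stretch between them. The ranks were 190 in replicate 1, 547 in replicate 2 and 252 in replicate 3, so replicate 2 placed it lowest. The library summits were 10, 3 and 37 bp from the optimal summit. A peak in this shared promoter cannot be assigned to either gene.

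mor encodes a core scaffold subunit of the Brahma complex and Snr1 another core subunit, the fly form of SNF5. mor (FBgn0002783) lies at chr3R:15968134-15972913 on the minus strand, and Snr1 (FBgn0011715) at chr3R:5470926-5472754 on the plus strand. Neither gene held an optimal summit, and the peak near each lay within or beside another gene. The mor peak, at chr3R:15974207-15974642 with signal 396 and rank 940, lay 1512 bp upstream of the mor TSS and 1127 bp downstream of a start of Hel89B, in an intron of that gene, which encodes an ATPase of the SNF2 family. It ranked 1150, 1090 and 774 in replicates 1, 2 and 3. The Snr1 peak, at chr3R:5466869-5467304 with signal 229 and rank 2298, lay 3839 bp upstream of the Snr1 TSS. This summit was 14 bp inside RpL35A, a cytoplasmic ribosomal protein gene. It ranked 1446 in replicate 2 and 1707 in replicate 3 and had no row in replicate 1, the only one of the 11 peaks missing from a library.

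osa encodes a DNA-binding subunit that defines the BAP form of the Brahma complex. The gene (FBgn0261885) lies at chr3R:17687818-17718350 on the minus strand. It held a pair of strong peaks deep in the gene, 3820 bp apart and both in the same intron of 8067 bp, intron 4 of 15, counted in the transcript with most exons among those with the summit in an intron. The stronger, at chr3R:17704252-17704591, had a signal of 1281 and rank 60, and lay 13942 bp downstream of the osa TSS in an exon of lncRNA:CR46035, a noncoding gene nested in osa on the opposite strand. Its ranks of 57, 64 and 72 in replicates 1, 2 and 3 had the smallest ratio of worst to best among the 10 peaks seen in all 3 libraries. The other, at chr3R:17700398-17700763, had a signal of 999 and rank 135, 17762 bp downstream of the osa TSS and 153 bp upstream of the start of another noncoding gene, lncRNA:CR46036, whose start lies within osa. It ranked 233, 96 and 114 in replicates 1, 2 and 3. All 6 ranks lie far above those of the rows at the osa promoter, given below.

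trx encodes the histone methyltransferase after which the group is named. The gene (FBgn0003862) lies at chr3R:14263358-14286903 on the minus strand. With 3 optimal peaks it had the most of the 7 genes, 0.894 per 10 kb. The strongest, at chr3R:14283699-14284051, had a signal of 1130 and rank 98, and lay in the first intron, 3028 bp downstream of the TSS. The ranks of 102, 71 and 125 in replicates 1, 2 and 3 keep it near the top of every list, and the library summits were within 2 bp of the optimal one. A weaker peak in the second intron, at chr3R:14277839-14278274 and 8846 bp downstream of the TSS, had a signal of 269.8 and rank 1795. Its ranks were 1858, 1535 and 2087. The third, at chr3R:14288608-14289043 with signal 306 and rank 1440, was 1923 bp upstream of the trx TSS but 245 bp upstream of a start of the neighbouring gene red. It ranked 1542, 1384 and 1868, so both weaker sites were strong rows in each library.

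ash1 encodes another SET-domain histone methyltransferase. The gene (FBgn0005386) lies at chr3L:19590773-19598755 on the minus strand. Its peak had the highest signal of the 11, 2660, at chr3L:19590421-19590817 and rank 7 of 3905. It lay at the far end of the gene, 8144 bp downstream of the ash1 TSS and 162 bp past the annotated 3′ end. The nearest start site was that of CG14100, with the summit 87 bp upstream of it. The ranks were 1, 8 and 8 in replicates 1, 2 and 3, and in replicate 1 no row of the genome was stronger. At the ash1 start itself no library listed a row within 500 bp, not even among the 30000 relaxed rows, and ash1 was the only member of which this was true.

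kis encodes a chromodomain ATPase and is the longest of the 7 genes. It (FBgn0266557) lies at chr2L:210735-250823 on the minus strand. Its 2 peaks lay 1322 bp apart in 1 intron of 7230 bp, upstream of the internal of its 2 annotated starts. The stronger, at chr2L:223438-223669, had a signal of 538 and rank 514, 1574 bp upstream of the internal start and 17 bp inside the nested noncoding gene lncRNA:CR44222. It was the narrowest of the 11, 232 bp wide, and ranked 736, 348 and 629 in replicates 1, 2 and 3. The weaker, at chr2L:224640-225075, had a signal of 255 and rank 1943, and lay 2896 bp upstream of the internal start. It ranked 1681, 1445 and 3482, so replicate 3 placed it close to the end of its strong rows.

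**Figure D2:**
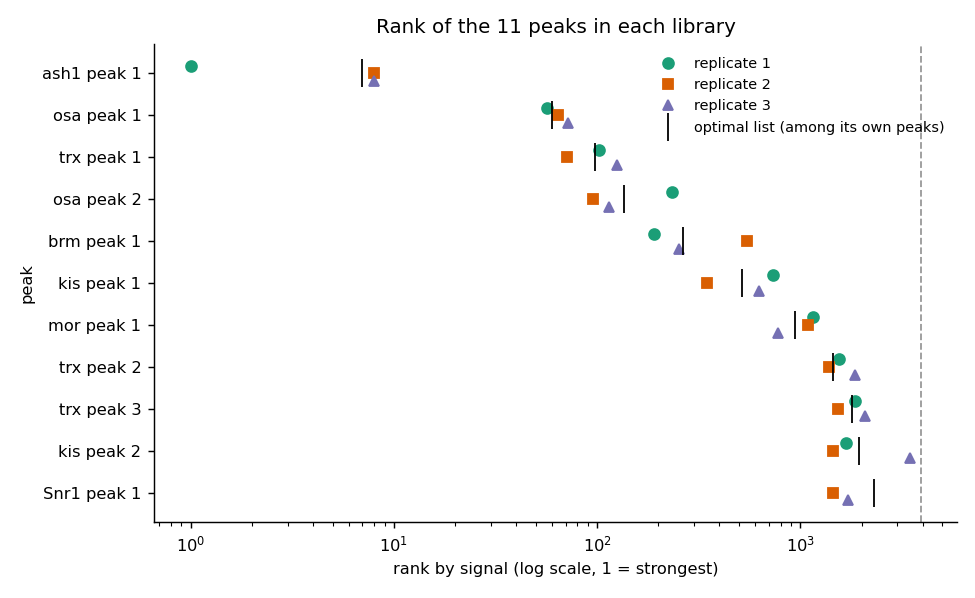
Rank of the 11 peaks by library. The x axis is the rank by signal on a log scale, each row is a peak, coloured points are the best-ranked overlapping row in each of the 3 libraries, black bars the rank in the optimal list, and the dashed line rank 3921. All points lie left of the dashed line, and the Snr1 peak has no point for replicate 1.

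Of the 11 peaks, 10 overlapped a strong row in all 3 libraries, 90.9% (exact 95% Clopper-Pearson interval 58.7 to 99.8, counting error only), against 64.4% of all 3905. The optimal list was made from these libraries, so some overlap is built in, and peaks of 1 gene share a locus. The 64.4% covers peaks of every rank, while 10 of the 11 were in the stronger 50% of the optimal list. Support was not compared among peaks of like rank. Among the 10 peaks with a row in every library, the worst rank was 1.26 to 8 times the best, with a median of 1.94, against 1.81 over 3710 optimal peaks seen in all 3. The library summits lay a median of 9.5 bp from the optimal summit, and 30 of 32 were within 50 bp.

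The peaks at these genes stood high in the optimal list. The median signal was 538 (range 229 to 2660), against 255 over all optimal peaks, and the median rank 514 against 1953. Of the 11, 3 were among the strongest 100 peaks, 27.3% against 2.56%, and 5 among the strongest 500, 45.5% against 12.8%. These 5 were the peaks of ash1, osa, trx and brm with rank 264 or better. The other 6 had signals of 229 to 538.

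Most of the summits near a start site were near the start of another gene. By the nearest start of any gene, 6 of 11 summits were within 500 bp of a TSS, 54.5% against 41.7% of all optimal summits. For 5 of these 6 the start was not the member's own but that of CG14100, RpL35A, red, lncRNA:CR46036 or lncRNA:CR44222. Another 4 lay in introns, 36.4% against 40.8%, and 1 in the noncoding exon nested in osa. Of the summits more than 500 bp from every TSS, none at the members lay in a coding exon or outside all genes, while these classes held 0.179% and 14.96% of all optimal summits. Counting the summits near a TSS as well, 3 of the 11 (that of brm, that beside ash1 and that of trx near red) lay in no annotated gene. The member's TSS was the nearest for 3 of the 11 peaks, that of brm and the intronic pair of trx. Neither this count nor the 5 of 6 was made for other genes. A window of gene and flanks also takes in starts of neighbouring and nested genes. The Snr1 peak was the farthest outside its gene, 3839 bp, and the nearest summit beyond the 5 kb limit was 6702 bp outside osa (signal 234).

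At the start sites without an optimal peak, weaker rows appeared in some libraries. Strong promoter rows were present at 1 member in replicate 1, 4 in replicate 2 and 3 in replicate 3, against 10.6%, 12.3% and 11.7% of all genes. In all 3 libraries the count was 1 of 7 (brm), against 7.24% of all genes. It was 3 in replicates 2 and 3 alone, without replicate 1, where trx and kis joined brm. A looser rule left out 1 library and took a strong row in at least 1 of the remaining 2 in place of an optimal peak. By it, 4, 3 and 4 members had a promoter summit without replicates 1, 2 and 3. The share of all genes was computed neither for this rule nor for replicates 2 and 3 together. The trx promoter ranked 3099 in replicate 2 and 2713 in replicate 3, 232 and 261 bp from the TSS, and had no row in replicate 1. That of kis ranked 16765, 2818 and 3283 in replicates 1, 2 and 3, with the best rows of replicates 2 and 3 at the internal start. The Snr1 promoter had a row in replicate 2 alone, at rank 3190. For trx, kis and Snr1 the promoter was thus strong in 1 or 2 libraries and never in replicate 1, the library with the smallest share of rows at its highest −log10 q-value. The part of that difference between libraries in these counts was not tested.

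**Figure D3:**
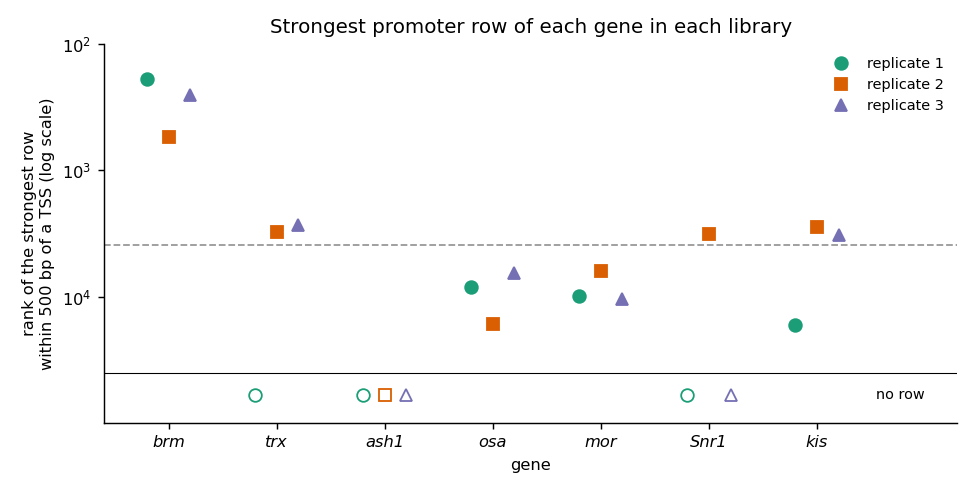
Strongest row within 500 bp of a TSS of each gene, by library. The y axis is the rank by signal on a log scale with the strongest at the top, points are the 3 replicate libraries, the dashed line is rank 3921 and open points mean that the library lists no row there. brm is above the line in all 3 libraries, and ash1 has open points only.

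Among all relaxed rows, promoter rows were present at 4 members in replicate 1, 6 in replicate 2 and 5 in replicate 3, against 31.2%, 44.7% and 41.4% of all genes. Of the 7, 4 (brm, osa, mor and kis) had one in all 3 libraries, against 20.3% of all genes. The osa promoter ranked 8466, 16618 and 6525 in replicates 1, 2 and 3, and the mor promoter 9910, 6332 and 10396. These ranks lie beyond the strong rows in all 3 libraries. The count of 4 fell to 2 with a window of 250 bp, and to 2 in the stronger 50% of each list.

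Inside the windows, weaker rows were most numerous at the longest genes. The pooled list held 56 further rows that touch no optimal peak, and some of them overlap each other. They were 18 at osa, 16 at kis, 13 at trx, 5 at mor, 3 at brm, 1 at ash1 and 0 at Snr1. In the same order, the windows are 40.5, 50.1, 33.5, 14.8, 22.8, 18.0 and 11.8 kb long. The rate of pooled rows over the arms was not computed. Of the 56, 21 had a row in all 3 libraries, 9 of them at osa, 5 at kis and 3 at trx. Some neighbouring pooled rows share the same library rows, so the 21 are not all separate sites. The one of highest signal was in a trx intron 7062 bp downstream of the TSS (pooled signal 150.0, pooled rank 4172), with ranks of 2753, 13092 and 3182 in replicates 1, 2 and 3. At kis, rows lay 1165 bp downstream of the internal start (pooled signal 138) and 2659 bp downstream of the outer start (137). Counting every relaxed row, the windows held 2.19, 4.23 and 4.07 rows per 10 kb in replicates 1, 2 and 3, against 2.24 over the arms, so replicate 1 was no denser here than elsewhere. Counting strong rows alone, they held 0.626, 0.835 and 0.835 per 10 kb, against 0.293 over the arms. The mean was 0.766 ± 0.121 (SD, n = 3), and all 3 libraries were above the rate of the arms. These 12, 16 and 16 strong rows include those that overlap the optimal peaks of the same windows. They are thus not support separate from the optimal list.

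The summits were poor in G and C. Within 50 bp of the summit the 11 peaks had a G+C content of 28.9% ± 6.05 (SD, n = 11 peaks), against 33.8% ± 9.11 over all 3905. The flanks, centred 300 bp to each side, had 45.4% ± 5.85 at the members and 44.0% over all peaks. The difference was −16.5 ± 7.87 percentage points at the members and −10.2 ± 12.7 over all peaks (SD among peaks), and the gap between these means was not tested. Taken from the library summits, it was −19.6 (10 peaks), −16.4 and −19.5 (11 peaks each) in replicates 1, 2 and 3. The mean was −18.5 ± 1.83 (SD, n = 3 libraries). Replicate 1 lacks the Snr1 peak, so its value and the mean rest on unlike sets of peaks. The summit was lower than its flanks at 10 of 11 peaks, against 78.5% of all. The exception was the Snr1 peak at RpL35A, with 39.6% at the summit and as the mean of its flanks. Its flanks were unlike, with 24.8% on one side and 54.5% on the other.

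**Figure D4:**
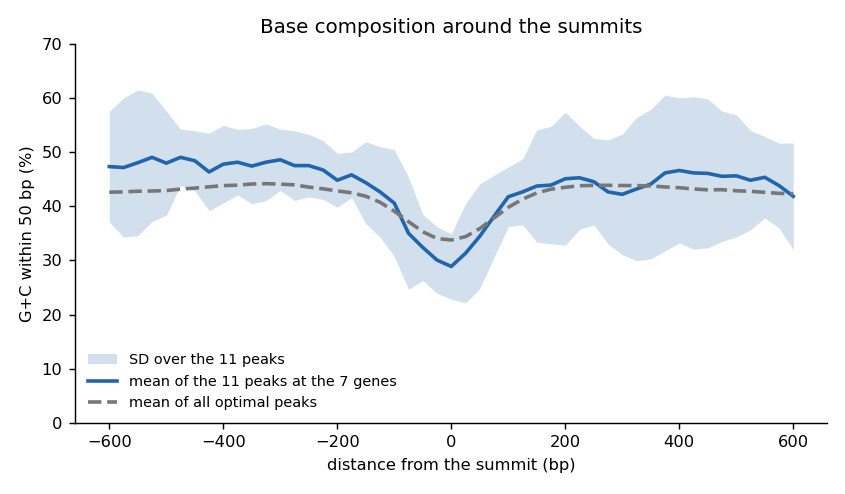
G+C content around the summits. The x axis is the distance from the summit in bp, the y axis the G+C content within 50 bp of each position in percent, the blue line and band the mean and SD of the 11 peaks, and the grey dashed line the mean of all 3905 optimal peaks. Both lines dip at the summit, to 28.9% and 33.8%.

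The lowest values were at the second-intron peak of trx, 18.8%, and the weaker osa peak, 19.8%, whose flanks had means of 36.6% and 49.0%. The sides had 22.8% and 50.5% at this trx peak, so the lower side was near the summit value. At the osa peak they had 44.6% and 53.5%. The longest run of A and T in the window was 9 to 22 bases long, with a median of 13 against 10 at all optimal summits. That of brm was the longest, and it stands in capitals in the brm sequence above. This measure was added after the sequences were read.

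A set of 8 short motifs was searched on both strands within 50 bp of each summit. The TATA-like word TATAAA was at 6 of 11 member summits (the peaks of osa and kis, that of brm and the second-intron peak of trx), 54.5% against 22.5% of all optimal summits and 10.1% of flanks. TAATTA, a core that homeodomain proteins bind, was at the brm peak and the first-intron peak of trx. That is 18.2%, against 9.94% of all optimal summits and 5.26% of flanks. The A/T words ATTTAAAA and AAAATTTT were at 2 and 1 member summits, 18.2% and 9.09%, against 6.33% and 2.00% of all. In flanks they were at 1.78% and 0.730%. These 4 words hold no G or C and can overlap one another, and the member windows were also lower in G+C. The part of base composition in the counts was not tested. GAGAG, the core that GAGA factor binds, was at the stronger kis peak only, 1 of 11, against 10.1% of all. It was in 16.5% of flanks, so over the whole list it was rarer at summits than beside them. The words TATCGATA, CAGGTA and CAGCTG were in none of the 11 windows, against 0.768%, 1.84% and 3.64% of all. Their flank shares were 0.410%, 2.02% and 4.66%. A match is a word in the window and does not show that a factor binds there.

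Other trithorax group genes had promoter peaks of lower signal than brm. A list of 29 further genes held 8 Brahma subunits and partners, 12 genes of COMPASS-type methyltransferase complexes and 9 other trithorax group genes. Of the 29, 7 (24.1%) had an optimal promoter summit, against 11.4% of all genes and 13.3% of protein-coding genes. In the body or within 5 kb, 15 (51.7%) had one, against 36.5% and 38.4%. The count of 7 fell to 3 with a window of 250 bp and to 1 in the stronger 50% of the optimal list. The 7 were 2 of 8 Brahma genes, Bap60 (signal 186) and Brd7-9 (226), and 2 of 12 COMPASS genes, Rbbp5 (171) and Ptip (241). The remaining 3 of 9 were Trl, which encodes GAGA factor (467), the Mediator kinase module gene skd (217) and tna (249.6). All 7 signals were below the 755 of the brm promoter. The peaks of Bap60 and Rbbp5 overlapped no strong row in any library and no row at all in replicate 1. In replicates 2 and 3 they ranked 4673 and 4160 (Bap60) and 5271 and 8319 (Rbbp5). Of the 7 summits, that given for Bap60 lay nearer to a start of CG12096 (46 against 142 bp), that for Rbbp5 nearer to eRF1 (88 against 325 bp) and that for skd nearer to Pdss2 (111 against 370 bp).

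The Polycomb group, which acts in opposition, was set beside the members as a description only. The 7 members had 1 gene with an optimal promoter summit and 7 with one in the body or within 5 kb. Of 19 Polycomb group genes, 4 (21.1%) had an optimal promoter summit, namely ph-p, ph-d, Psc and E(z). In the body or within 5 kb, 8 (42.1%) had one. Among all genes the shares were 11.4% and 36.5%, and gene length was not taken into account. The strongest promoter summits of ph-p and ph-d lay 461 and 360 bp from the TSS, and that of ph-d had no row in replicate 1. The signal of the strongest promoter peak was 755 at brm among the members and 1980 at ph-p among the Polycomb genes.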

How the data were processed

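CG1529-GFP ChIP-seq peak lists of 3 libraries were used. Chromatin was sonicated to 200 to 800 bp, per the labels. Per the deposited file listings, each library list and the pooled list were made in dm6 against 1 shared control alignment and hold peaks with background, and the optimal list was made from these 4. Neither labels nor listings name the aligner, the caller or the threshold. The signal and the −log10 q-value of a peak are the authors' deposited values. The signal was used only to rank or describe peaks within a list.

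The 3921 optimal rows were reduced to 3905 distinct intervals. Summits (start plus offset) were set against genes and TSSs of Ensembl release 115, whose assembly has the chromosome lengths of the RefSeq genome. Any overlap counted as support. Counting code was tested on simulated peaks. Python 3.11.15, pandas 2.3.3, numpy 2.4.6, scipy 1.17.1 and matplotlib 3.10.9 were used. With 1 group, no test between conditions was possible and no p-value is given.

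The members, lists and motifs were chosen with earlier results of these data known. All 7 members are named, with up to 4 peaks each, the genes of the nearest starts, and each listed gene with a promoter summit. Of the Polycomb names, calypso had no match. Alternatives changed the TSS window, flank, list length, overlap rule, base windows and libraries.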

Additional observations from a re-analysis of the deposited data

How the results depend on the processing

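The 8 counts and values were recomputed under 43 alternatives, of which 32 stayed within 1.5 times the count or within the spread between libraries, 11 moved further and 0 reversed. Within the gene body alone, 3 members held a summit and the members held 6 peaks, in place of 7 and 11. Members with a promoter row in all 3 relaxed lists were 2 with a window of 250 bp and 2 in the stronger 50% of each list, in place of 4. The further trithorax genes with a promoter summit were 3 with a window of 250 bp and 1, Trl, in the stronger 50% of the optimal list, in place of 7. When strong rows of at least 1 of the remaining 2 libraries were used in place of the optimal list, leaving out each replicate gave 3 to 4 members with a promoter summit, against 1. That rule is looser than the optimal list, and the share of all genes under it was not computed. Members with a strong promoter row in every remaining library were 1 to 3, with 3 when replicate 1 was left out. The G+C difference, from library summits, ranged from −19.5 to −17.9 percentage points. Replicate 1 enters these values without the Snr1 peak. The cause of these moves was not tested. No paired analysis was possible because the 3 libraries form 1 group. Read depth is unknown, so no limit of detection can be given for a promoter without a row.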

Other observations

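The promoter peaks most like that of brm, by Euclidean distance of log10 rank over the 3 libraries among 1652 protein-coding genes with a promoter peak in all 3, were those of Arl1, bin3 and Vha100-2. Arl1 has the same peak, at distance 0. The bin3 peak (signal 717) ranked 207, 574 and 315 in replicates 1, 2 and 3, at distance 0.106. The peak of Vha100-2, shared with Vti1b (signal 728), ranked 220, 433 and 285, at distance 0.131.

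The word AGTCACT, picked after the member sequences were read, was within 50 bp of 3 of the 11 summits, those of brm, the first-intron peak of trx and the stronger peak of osa. It was at 0.871% of all optimal summits and in 0.948% of flank windows, so over the whole list it was no more frequent at summits than beside them.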
